A study of Sus scrofa with 48 samples.

Results

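The 10 genes described here encode parts of the complement system: the 3 chains of C1q (C1QA, C1QB, C1QC), complement factor D (CFD), properdin (CFP), the receptors for the C3a and C5a fragments (C3AR1, C5AR1) and the membrane regulators CD46, CD55 and CD59. Members were the spots whose gene name in the scanner files was one of these symbols and which the authors retained in their normalized table. Of the 10 genes, 7 had at least 1 retained spot, on 13 of 37113 retained spots, and 3 further spots under these names were left out of the table. The series tested 10946 gene names in all. No spot on the array was named CFD or C3AR1, and the only C1QC spot was among those left out. A further 4 retained spots were identified through a RefSeq accession or a gene number as C1QA, CFD, CD46 and CD55, and they are given beside the named spots and not as part of them.

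Whole blood was taken from 48 castrated male French Large White pigs at 132 days of age, with 1 single-colour array per pig. The pigs came from a pair of lines bred in opposite directions for residual feed intake (RFI), which is the feed eaten beyond what maintenance and growth predict. They were fed a high-fat, high-fibre diet (HF) or a low-fat, low-fibre diet (LF), and each of the 4 groups (low RFI HF, low RFI LF, high RFI HF, high RFI LF) held 12 pigs. The comparisons ask whether the blood transcripts of complement genes differed between lines, between diets, or in the response of each line to diet. Only castrated males of the 2 lines were sampled, so the line values describe these lines and not feed efficiency in other pigs. Values are log2 intensities relative to the median of each array, on which 0 is the array median. In whole blood, fewer cells of a type and less RNA per cell cannot be told apart.

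Complement is a cascade of plasma proteins that tags microbes and dying cells. C1q starts the classical pathway by binding antibody or altered surfaces, factor D and properdin start and stabilise the alternative pathway, and the C5a receptor draws neutrophils and monocytes to the site. CD46, CD55 and CD59 sit on the membranes of blood cells and keep the cascade from damaging the host: CD46 helps to inactivate C3b and C4b, CD55 (decay-accelerating factor) takes the C3 convertase apart, and CD59 blocks the membrane attack complex.

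The results for C1q, C5AR1 and CD55 turn on which probe of a gene is read, so 60-base probes of these 3 groups are shown as the array design gives them. For the C1QB oligo O8971, capitals mark 20 bases that are the complement of GGNNNNNNNGGNNNNNNNGG, the spacing that repeated glycine codons of a collagen-like stretch leave. That motif lies on 0.784% of the 60306 non-control probes as printed and on 0.803% on the complementary strand, and in O8971 it lies on the complementary strand only. The strand of each probe against its transcript was not tested, and a match is a description and not a site.
C1QB A_72_P442926: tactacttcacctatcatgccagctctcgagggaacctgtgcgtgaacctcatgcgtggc
C1QB O8971: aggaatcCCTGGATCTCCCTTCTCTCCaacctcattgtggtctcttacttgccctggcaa
C1QA O11770: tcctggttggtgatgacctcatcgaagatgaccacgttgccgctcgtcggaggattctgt
C1QC A_72_P403253: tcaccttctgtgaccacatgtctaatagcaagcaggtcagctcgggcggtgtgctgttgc
C5AR1 O12027: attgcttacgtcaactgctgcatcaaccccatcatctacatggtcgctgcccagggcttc
C5AR1 A_72_P305754: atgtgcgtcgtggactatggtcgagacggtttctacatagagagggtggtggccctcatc
CD55 A_72_P443243: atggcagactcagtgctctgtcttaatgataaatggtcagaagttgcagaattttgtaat

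Each of the 6 slides held 2 arrays of each group. Between 40771 and 46727 spots per array were well above background. No spot of a complement gene was saturated. The labelled tissue carried the transcripts of blood: 8 of 11 monocyte or macrophage markers, 8 of 9 neutrophil markers, 8 of 9 T cell markers, 6 of 7 B cell markers, 6 of 8 erythroid markers, 5 of 6 platelet markers and 3 of 6 NK cell markers had a mean above the array median. The 3 adipocyte markers and the 2 hepatocyte markers tested lay below it. Some markers differed between lines, beside 1.64% of all genes called lower in low RFI and 1.65% called higher. Of 11 monocyte or macrophage markers 1 was called, CD14, underexpressed in low RFI by 0.47 on the log2 scale (limma, adjusted P-value 0.037), and the median difference of the list was −0.05, with 3 markers positive. Of 9 neutrophil markers 1 was called, CXCR2, underexpressed by 0.42 (adjusted P-value 0.039), and the median of the list was −0.25, with 3 markers positive. Underexpressed calls were made for 3 of 7 B cell markers and 1 of 3 adipocyte markers, and overexpressed calls for 1 of 9 T cell markers (LCK) and 1 of 8 erythroid markers (SLC4A1). The summed level of the neutrophil list ranged from 6.80 to 8.86 in low RFI pigs fed either diet and from 7.05 to 9.19 in high RFI pigs, and that of the monocyte list from 5.52 to 6.59 and from 5.19 to 6.83.

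CD55 was the member that differed between the lines. In low RFI pigs its log2 intensity ran from 3.61 through a median of 4.10 to 4.44 under the HF diet, and from 3.62 through 4.01 to 4.59 under the LF diet. In high RFI pigs it ran from 4.08 through 4.43 to 4.96 under HF and from 3.75 through 4.47 to 4.76 under LF. The lines overlapped, but 21 of 24 low RFI pigs lay below the high RFI median and 7 high RFI pigs lay above the highest low RFI pig. Low RFI pigs averaged 4.05 ± 0.30 (SD, n = 24), against 4.44 ± 0.26 (SD, n = 24) for high RFI pigs.

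The line difference of CD55 was −0.40 on the log2 scale (SE 0.08, 95% confidence interval −0.56 to −0.23), an FC of −1.32 (limma, P-value 1.3e-05, adjusted P-value 0.002 over 10946 genes). CD55 was thus 1 of 7 members called lower in low RFI at an adjusted P-value under 0.05, where 1.64% of all genes were called lower. No member was called higher, where 1.65% of all genes were. It was also the only member past the joint criterion of a P-value under 0.01 with an FC above 1.1, which 2.96% of all genes passed in that direction. Within slides, low RFI was below high RFI on 6 of 6 slides, by −0.55 to −0.14. Since 1 array was made per pig, these P-values measure the spread between pigs together with that of the assay.

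**Figure D1:**
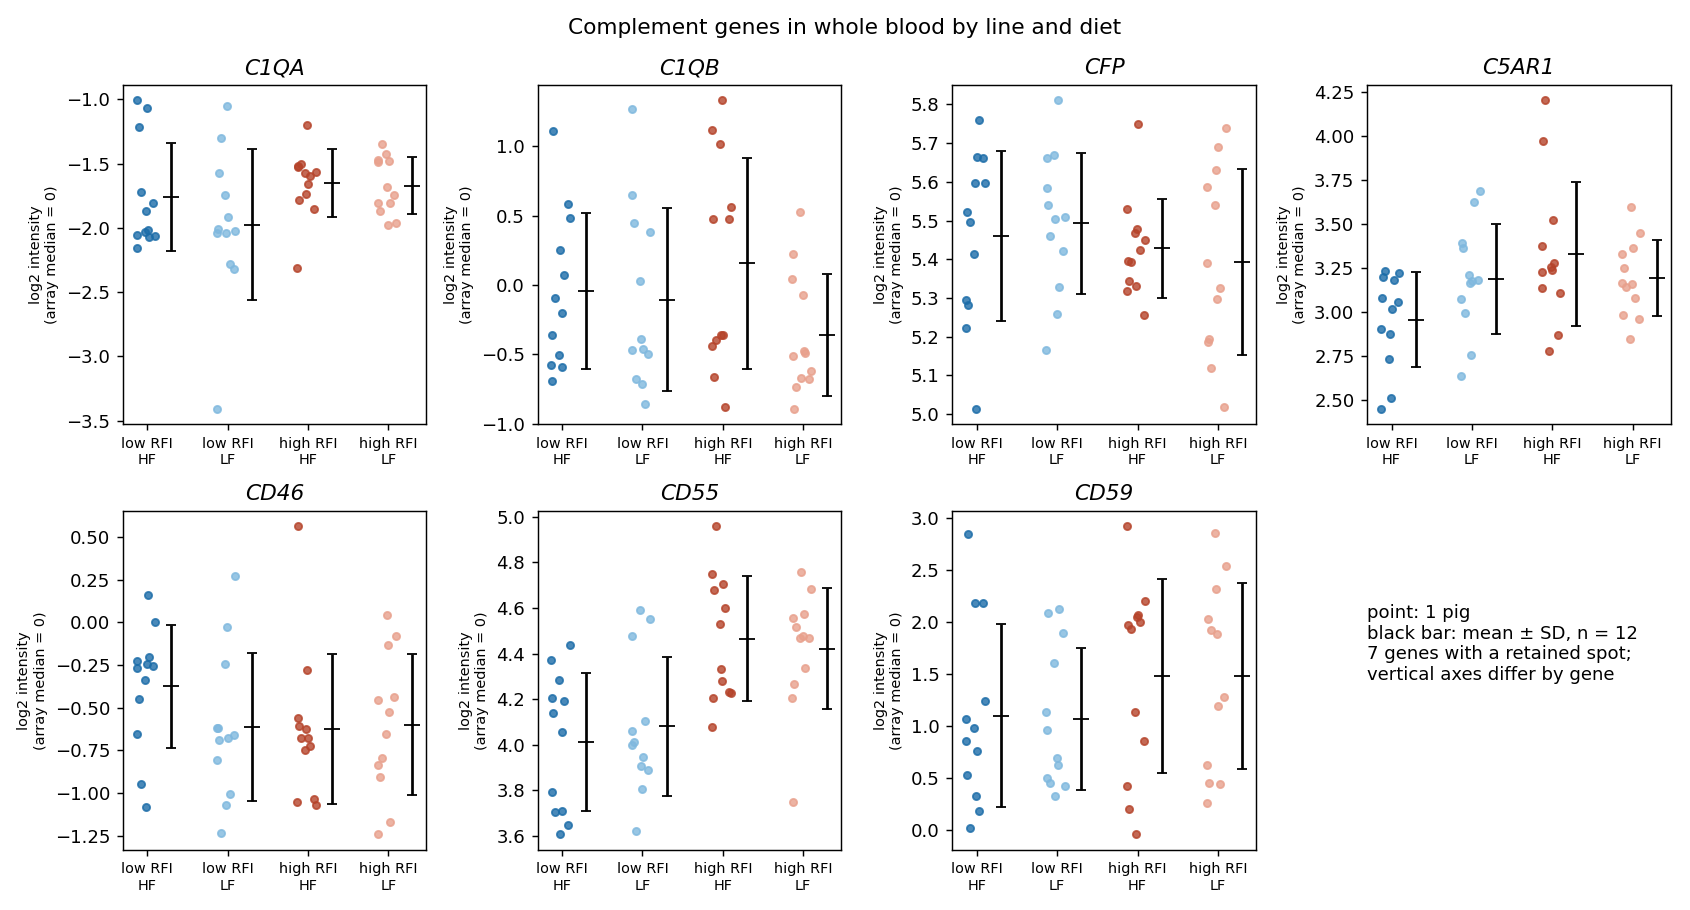
Log2 intensity of each of the 7 complement genes with a retained spot (vertical axis, array median at 0, scale different for each gene) in every pig, by line and diet; black bars give the mean ± SD of 12 pigs. CD55 has group means of 4.01 and 4.08 in low RFI against 4.47 and 4.42 in high RFI, while C1QB and CD59 spread widely within every group.

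Both retained CD55 probes had the direction of the gene. A_72_P443243 differed by −0.30 (SE 0.08, adjusted P-value 0.022 over 37113 spots) and A_72_P165046 by −0.50 (SE 0.10, adjusted P-value 0.0017), where 1.44% of retained spots were called lower. Below the high RFI median lay 20 of 24 low RFI pigs for A_72_P443243 and 23 of 24 for A_72_P165046. Under LF the differences were −0.24 (P-value 0.033) and −0.44 (P-value 0.0037), of which the former did not pass the joint criterion. The spot identified by accession differed by −0.45 (adjusted P-value 0.0035), but it shares 57 bases with A_72_P165046 and followed it with r = 0.98 over the pigs. The separate probes A_72_P443243 and A_72_P165046 followed each other less closely, with r = 0.63 and Spearman's rho of 0.65 (permutation P-value 1e-05, the smallest that 100000 permutations can give).

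Read within each diet, CD55 was lower in low RFI under both. Under HF the difference was −0.45 (SE 0.12, P-value 0.00028, adjusted P-value 0.039), 11 of 12 low RFI pigs lay below the high RFI median and 6 of 12 lay below the lowest high RFI pig. CD55 was the only one of 7 members called there, where 0.42% of genes were called lower. Under LF the difference was −0.34 (SE 0.12, P-value 0.0048, adjusted P-value 0.23), and CD55 was 1 of 7 members past the joint criterion there, beside 1.64% of genes in that direction, which it did not pass without low RFI LF replicate 2 (−0.30, P-value 0.013) or high RFI LF replicate 6. The 2 differences were not shown to be unequal, since the interaction was −0.11 (95% confidence interval −0.44 to 0.22, P-value 0.5). Leaving out each pig in turn kept the overall line difference between −0.43 and −0.37 with adjusted P-values of at most 0.0039. The call under HF was less firm, because 13 of the 48 fits with 1 pig left out gave an adjusted P-value at or above 0.05, up to 0.094 without high RFI HF replicate 2. It was also lost with the neutrophil, monocyte or B cell marker mean as a covariate, with adjusted P-values of 0.16, 0.066 and 0.067.

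Both CD55 probes followed the monocyte or macrophage markers over the pigs, and 1 of them the neutrophil markers. After removal of the group means, A_72_P443243 correlated with the neutrophil marker mean (r = 0.56, rho = 0.50, adjusted P-value 0.00031 over 231 relations) and with the monocyte or macrophage marker mean at r = 0.46. A_72_P165046 had r = 0.30 with the neutrophil mean (rho = 0.22, adjusted P-value 0.11), which did not pass. It correlated with the monocyte or macrophage mean at r = 0.53 and with the erythroid mean at r = −0.45 (rho = −0.45, adjusted P-value 0.0099). Without the 2 pigs farthest from the median, or with slide means removed, the 4 values that passed kept their sign with sizes of 0.40 to 0.56. Both probes also followed the signal over background of the array (r = 0.48 and 0.54, or 0.21 and 0.43 with slide means removed). The B cell mean had r of 0.34 and 0.36 with A_72_P443243 and A_72_P165046 (adjusted P-values 0.074 and 0.052), with 0.51 and 0.59 in low RFI and 0.02 and −0.00 in high RFI. With the neutrophil, monocyte, erythroid or B cell mean as a covariate, alternatives chosen after seeing the data, the line difference of CD55 was −0.35, −0.34, −0.36 and −0.29, with adjusted P-values of 0.0034, 0.0024, 0.0023 and 0.037. With the B cell mean, A_72_P443243 alone differed by −0.21 (adjusted P-value 0.17), and under LF CD55 differed by −0.21 (P-value 0.089), or by −0.26 with the erythroid mean (P-value 0.027). The genes with the pattern most like CD55 among 10945 others over 48 pigs included USP32 (r = 0.82) and IQSEC1 (0.79). These values share the array median by which each array was centred.

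**Figure D2:**
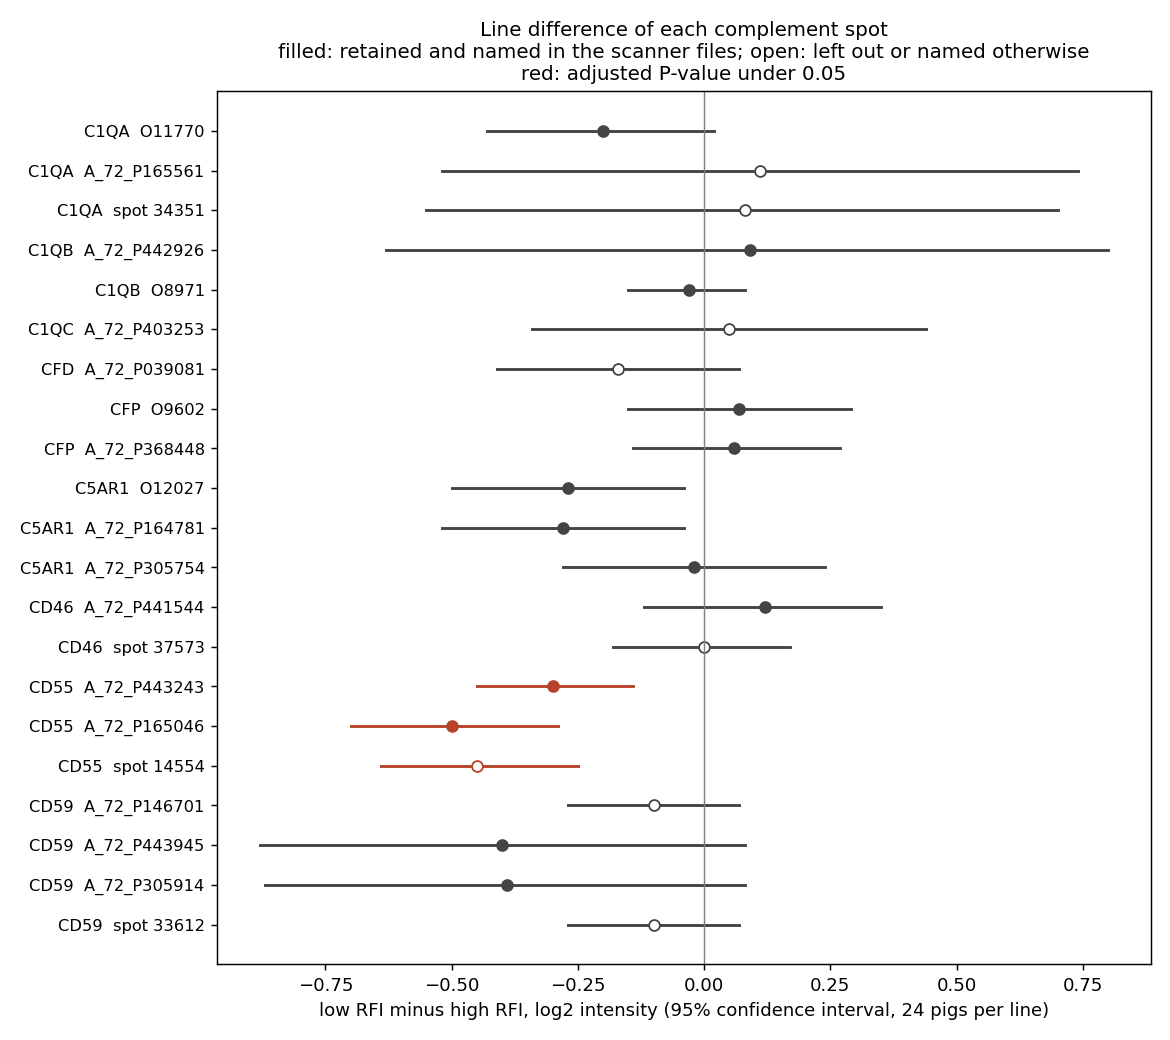
Difference between low RFI and high RFI (horizontal axis, log2 intensity, with 95% confidence intervals) for 21 spots of complement genes; filled points are retained spots named in the scanner files, open points are left out or identified otherwise, and red marks an adjusted P-value under 0.05. The 3 CD55 spots lie between −0.50 and −0.30, and the intervals of the C1q and CD59 spots that vary between pigs are the widest.

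The other membrane regulators did not pass the test. CD46 had 1 retained named spot, with a log2 intensity from −1.08 through a median of −0.26 to 0.16 in low RFI HF, from −1.23 through −0.67 to 0.27 in low RFI LF, from −1.07 through −0.68 to 0.56 in high RFI HF and from −1.24 through −0.59 to 0.05 in high RFI LF. All groups overlapped. The line difference of CD46 was 0.12 (95% confidence interval −0.12 to 0.35, adjusted P-value 0.82), and that of the spot identified by accession was −0.00 (95% confidence interval −0.18 to 0.17). These 2 CD46 spots followed each other over the pigs with r = 0.72 (rho = 0.75).

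CD59 varied more between pigs than between groups. Its log2 intensity ran from 0.02 through a median of 0.92 to 2.84 in low RFI HF, from 0.32 through 0.83 to 2.13 in low RFI LF, from −0.04 through 1.95 to 2.92 in high RFI HF and from 0.25 through 1.58 to 2.85 in high RFI LF. The medians of the high RFI groups were higher, but all groups overlapped, and low RFI LF alone had no pig above 2.13. The line difference was −0.40 (SE 0.24, 95% confidence interval −0.87 to 0.08, adjusted P-value 0.56), the estimate of CD55 with a standard error of 0.24 in place of 0.08. No value fell between 1.28 and 1.61, with 28 pigs below and 20 above. The 2 retained probes of CD59 share 42 bases and moved as one (r = 1.0). A different probe of CD59, left out of the table, was well above background on 26 of 48 arrays and followed A_72_P443945 with r = 0.67 (rho = 0.66). The genes most like CD59 were C14H10ORF128 (r = 0.62), LOC100154071 and RNF166 (both 0.60), and those most like CD46 were GLRX (r = 0.56), FOLR1 and TMEM205 (both 0.54), so that neither had a close counterpart.

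Among the 21 pairs of the 7 genes, 3 correlated over pigs at an adjusted P-value under 0.05 after removal of the group means. CD46 and CD55 had r = 0.50 (rho = 0.45, permutation adjusted P-values 0.008 and 0.02, r = 0.43 without the 2 farthest pigs). The spot of CD46 identified by accession had r = 0.23 and 0.35 with the CD55 probes A_72_P443243 and A_72_P165046 (adjusted P-values 0.23 and 0.048 over 210 pairs). For the gene values, r within lines was 0.46 in low RFI and 0.54 in high RFI, and it was 0.55 with slide means removed as well. C5AR1 and CD55 had r = 0.41 (adjusted P-value 0.034, rho = 0.35 with 0.11), with 0.23 in low RFI and 0.59 in high RFI. CFP and C5AR1 had r = 0.40 (0.034, rho = 0.44 with 0.02), with 0.54 in low RFI and 0.27 in high RFI. Both of these values average probes that do not run together. The C5AR1 probes O12027 and A_72_P164781 had r of 0.50 to 0.75 with the named CD55 probes, but A_72_P305754 had −0.19 and −0.43. With C5AR1 A_72_P164781 the CFP probe O9602 had r = 0.55 and the CFP probe A_72_P368448 −0.18, while with A_72_P305754 they had −0.39 and 0.77. By Spearman's rho, 2 of the 21 pairs passed.

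C5AR1, the receptor by which C5a activates neutrophils and monocytes, was lower in low RFI than in high RFI under the HF diet by the unadjusted test alone. Its log2 intensity ran from 2.45 through a median of 3.04 to 3.23 in low RFI HF and from 2.78 through 3.25 to 4.20 in high RFI HF. All 12 low RFI HF pigs lay below the high RFI HF median and 7 high RFI HF pigs lay above the highest low RFI HF pig. Under LF it ran from 2.63 through 3.18 to 3.69 in low RFI and from 2.85 through 3.16 to 3.60 in high RFI, and the groups overlapped almost whole. The line difference was −0.37 under HF (SE 0.12, P-value 0.0041, adjusted P-value 0.18) and −0.01 under LF (P-value 0.97). C5AR1 and CD55 were thereby 2 of 7 members past the joint criterion under HF, which 1.6% of genes passed in that direction. Of the 3 probes of C5AR1 under HF, O12027 differed by −0.51 (P-value 0.0032), A_72_P164781 by −0.40 (P-value 0.024) and A_72_P305754 by −0.22 (P-value 0.24). The criterion was no longer passed by the gene with the neutrophil mean (−0.25, P-value 0.036) or the monocyte mean (−0.27, P-value 0.011) as a covariate, with the brightest probe alone, or without 1 pig, which could be low RFI HF replicate 5 or 7 or high RFI HF replicate 2 or 8 (weakest −0.29, P-value 0.014, without high RFI HF replicate 2). The interaction itself was −0.37 (95% confidence interval −0.72 to −0.02, P-value 0.041) and had an adjusted P-value of 0.88. Interactions of the same sign were found for 9 of 9 neutrophil markers (median −0.41), 8 of 8 erythroid markers (median −0.36) and 7 of 11 monocyte or macrophage markers (median −0.09), beside 5418 of 10946 genes and a median of 0.00. That sign was also found for 4 of 6 platelet markers (median −0.01), but for only 1 of 9 T cell (0.08), 2 of 7 B cell (0.16) and 2 of 6 NK cell markers (0.05). The limma P-value of the interaction was under 0.05 for 0 neutrophil, 1 erythroid and 1 monocyte or macrophage marker. With the neutrophil, monocyte or erythroid mean as a covariate the interaction of C5AR1 was −0.23, −0.29 and −0.30 (P-values 0.16, 0.043 and 0.096). Over both diets the line difference of C5AR1 was −0.19 (SE 0.09, P-value 0.036, adjusted P-value 0.32).

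The 3 probes of C5AR1 did not measure the same variation. O12027 and A_72_P164781 differed between lines by −0.27 and −0.28 (P-values 0.025 and 0.023, adjusted P-values 0.29 and 0.27), and over the pigs they followed each other with r = 0.78 (rho = 0.80). A_72_P305754 differed by −0.02 (95% confidence interval −0.28 to 0.24) and had r = 0.17 with O12027 and r = −0.10 with A_72_P164781. O12027 and A_72_P164781 followed the monocyte or macrophage marker mean (r = 0.77 and 0.73) and the neutrophil marker mean (r = 0.54 and 0.63). A_72_P305754 followed the erythroid marker mean instead (r = 0.78, rho = 0.78, adjusted P-value 0.00019) and had r = −0.12 with the monocyte or macrophage mean. It also followed the adipocyte and hepatocyte lists, all of whose genes lie below the array median (r = 0.54 and 0.46), and ran against signal over background (r = −0.41, or −0.61 with slide means removed). Without the 2 farthest pigs, r was 0.71 and 0.72 for the monocyte relations and 0.73 for the erythroid one, and with slide means removed 0.79, 0.80 and 0.87. The genes most like A_72_P164781 included ALOX5AP (r = 0.89), which serves leukotriene synthesis in myeloid cells, and those most like A_72_P305754 were REEP5 and RNPEPL1 (both r = 0.95). The value of C5AR1 as a gene is the mean of all 3 probes and so mixes these patterns, and CEBPB (r = 0.78), CXCR1 (0.76), a chemokine receptor of neutrophils, and ARG2 (0.75) were most like it. Why the probes differ was not tested.

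The alternative pathway genes did not pass the test for line or diet. CFP, or properdin, ran from 5.01 through a median of 5.51 to 5.76 in low RFI HF, from 5.17 through 5.51 to 5.81 in low RFI LF, from 5.25 through 5.41 to 5.75 in high RFI HF and from 5.02 through 5.36 to 5.74 in high RFI LF. The groups overlapped over most of their range. The line difference was 0.07 (95% confidence interval −0.05 to 0.18, adjusted P-value 0.77). The spot identified as CFD by its gene number, whose protein is the protease that cleaves factor B, averaged 6.13 ± 0.45 (SD, n = 24) for low RFI pigs, against 6.30 ± 0.37 (SD, n = 24) for high RFI pigs. Its line difference was −0.17 (95% confidence interval −0.41 to 0.07, P-value 0.16) and its diet difference −0.02.

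As for C5AR1, the 2 probes of CFP gave different patterns over the pigs. O9602 and A_72_P368448 were opposed, with r = −0.44 (rho = −0.42, adjusted P-value 0.0088 over 210 pairs of spots). O9602 followed the monocyte or macrophage mean (r = 0.63) and the CFD spot (r = 0.65). A_72_P368448 followed the erythroid mean (r = 0.87, rho = 0.87, adjusted P-value 0.00019) and ran against the T cell mean (r = −0.66), and it also followed the adipocyte and hepatocyte lists (r = 0.68 and 0.53). With slide means removed the erythroid value was 0.90 and the opposition of both probes −0.53. Signal over background moved with both, at r = 0.65 for O9602 and r = −0.59 for A_72_P368448. The genes most like A_72_P368448 were RHBDD3 and 2 loci without a gene symbol (all r = 0.97), and GALK1 (r = 0.82) led for O9602. For CFP as a gene, the mean of both probes, they were SIRPA (r = 0.77), a receptor of myeloid cells, GABARAP and AP2A1 (both 0.74). The CFD spot followed the C5AR1 probe A_72_P164781 at r = 0.82, the CD55 probe A_72_P443243 at r = 0.72, the neutrophil mean at r = 0.62 and the monocyte or macrophage mean at r = 0.58.

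**Figure D3:**
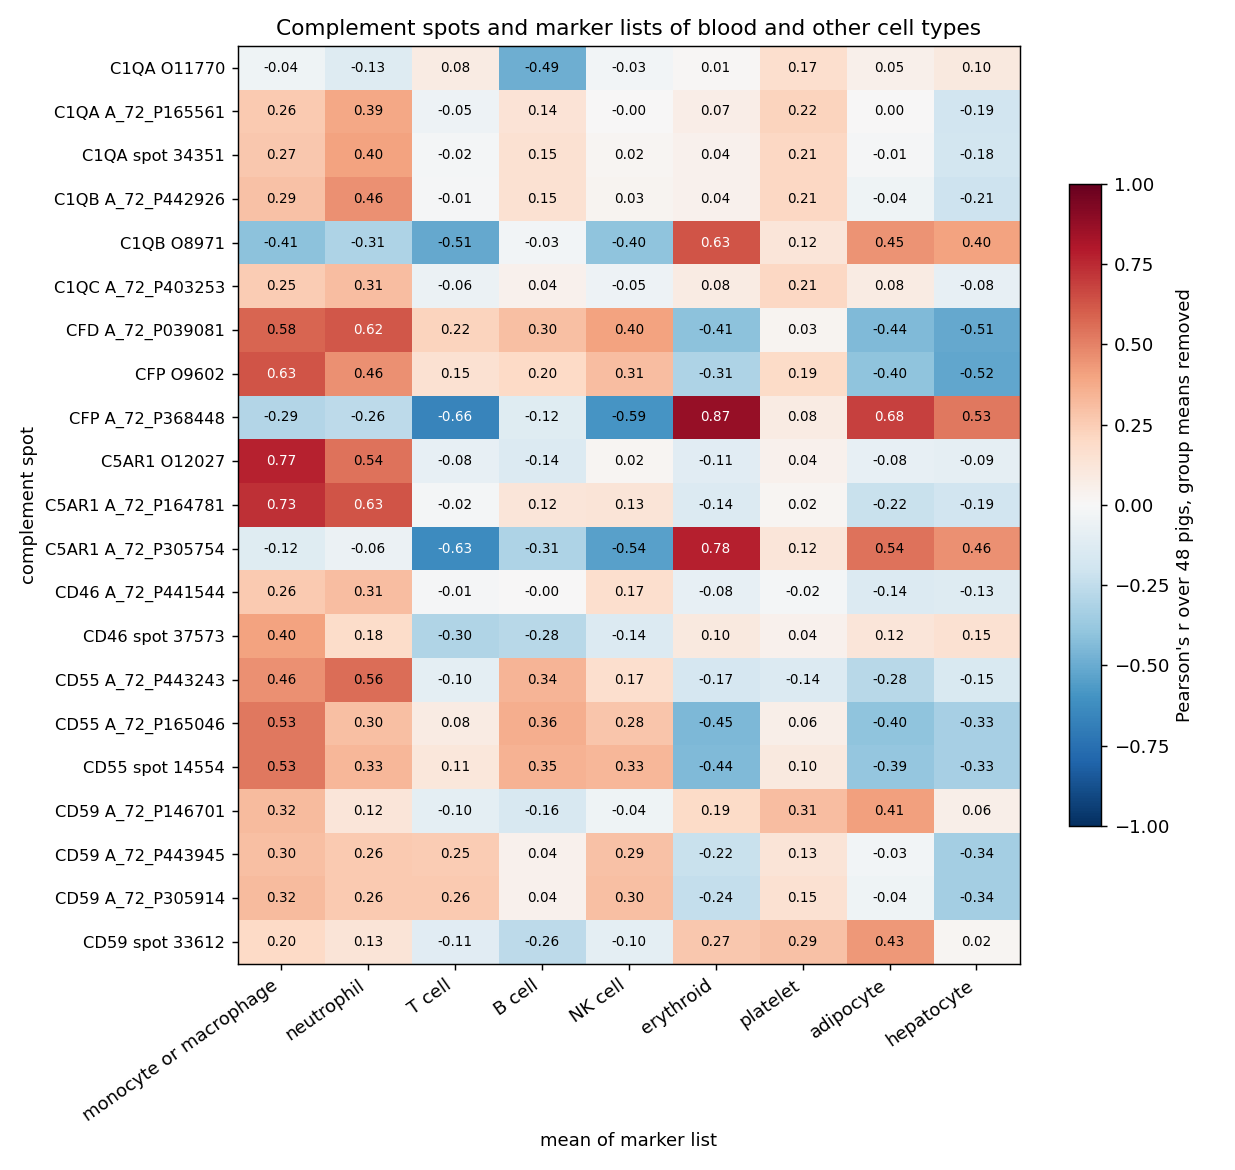
Pearson's r over 48 pigs, after removal of group means, between each of 21 complement spots (rows of the grid) and the mean of each marker list (columns). CFP A_72_P368448, C5AR1 A_72_P305754 and C1QB O8971 reach 0.87, 0.78 and 0.63 with the erythroid list, while the other C5AR1 probes reach 0.77 and 0.73 with the monocyte or macrophage list.

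The C1q chains varied widely between pigs of every group, and together. The C1QB probe A_72_P442926 ran from −2.32 through a median of −1.61 to 1.48 in low RFI HF, from −2.69 through −2.10 to 1.54 in low RFI LF, from −2.74 through −1.05 to 1.50 in high RFI HF and from −2.79 through −2.28 to 0.21 in high RFI LF. From the lowest to the highest pig this was a 20.2-fold range, and 16 of 48 pigs lay more than 1 log2 unit above the median of −1.96. The line difference of this probe was 0.09 (95% confidence interval −0.63 to 0.80), which leaves room for differences larger than that of CD55 in either direction.

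C1QA and C1QC rose and fell with C1QB from pig to pig. The C1QA probe A_72_P165561 ran from −3.46 to 0.85 and the C1QC probe A_72_P403253 from −3.38 to −0.46. These 2 spots were outside the retained table and were well above background on 33 and 31 of 48 arrays. C1QB A_72_P442926 correlated with C1QA A_72_P165561 at r = 0.99 (rho = 0.99) and with C1QC A_72_P403253 at r = 0.94 (rho = 0.90, permutation adjusted P-value 8.1e-05 for both). Without the 2 pigs farthest from the median the values were 0.99 and 0.92, and with slide means removed 0.99 and 0.95. The 8 pigs with the highest values were the same 8 for all 3 chains, and they comprised 2 low RFI HF, 2 low RFI LF, 3 high RFI HF and 1 high RFI LF pigs on 4 slides. In the RefSeq gene table of the Sscrofa11.1 assembly, the pig genes C1QA, C1QC and C1QB are neighbours in that order.

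**Figure D4:**
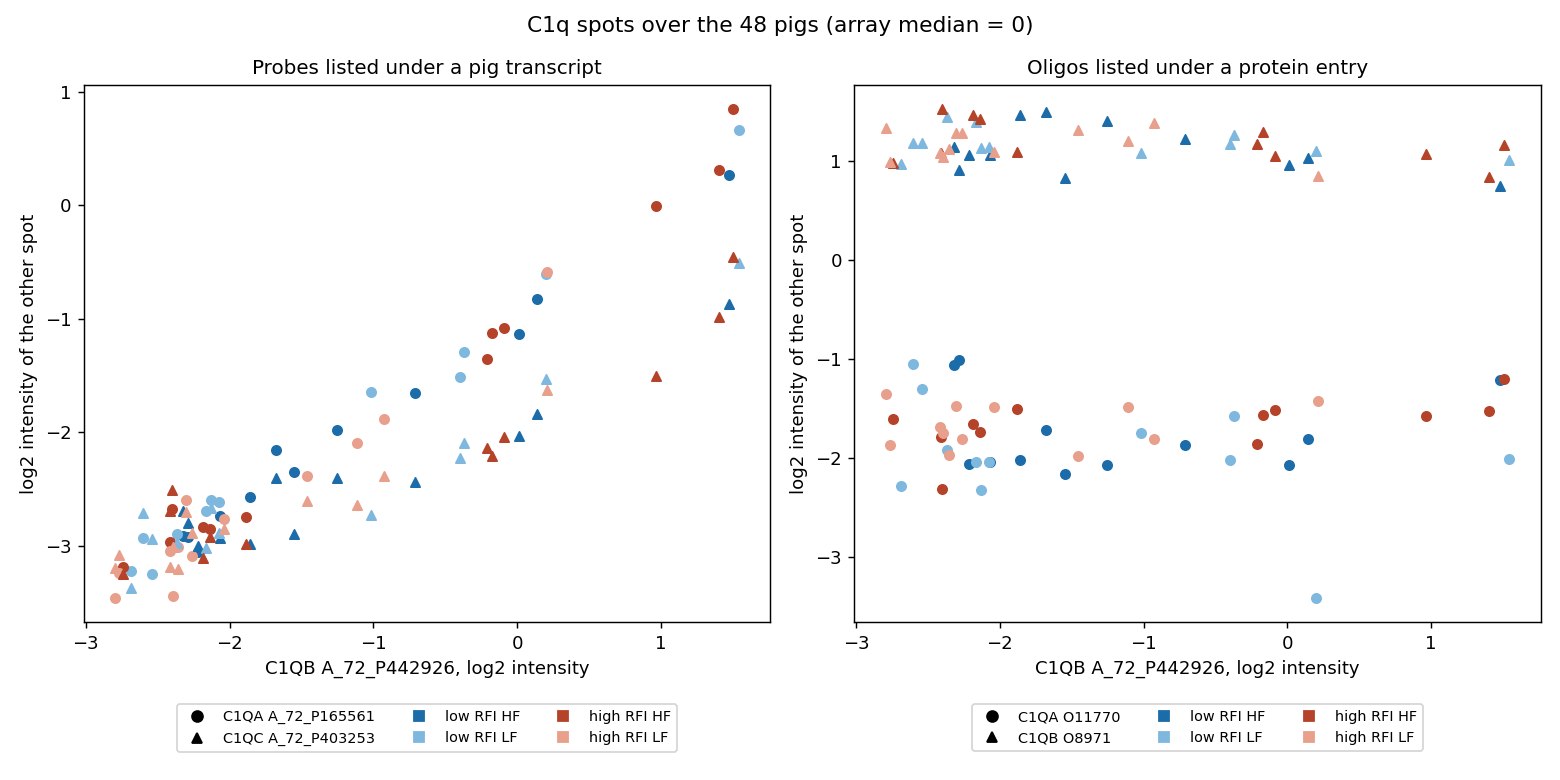
Log2 intensity of C1q spots (vertical axes) against that of C1QB A_72_P442926 (horizontal axes) in 48 pigs, coloured by line and diet. In the left panel C1QA A_72_P165561 and C1QC A_72_P403253 rise with C1QB, with r of 0.99 and 0.94, whereas in the right panel C1QA O11770 (r = 0.01) and C1QB O8971 (r = −0.36) do not.

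The oligos listed under protein entries did not share this variation. C1QB O8971 ran only from 0.74 to 1.52 and had r = −0.36 with A_72_P442926 (rho = −0.24, adjusted P-value 0.041 by r). It followed the erythroid marker mean (r = 0.63, rho = 0.62, adjusted P-value 0.00019) and the adipocyte and hepatocyte lists (r = 0.45 and 0.40), and its r with signal over background was −0.31 (adjusted P-value 0.11), or −0.75 with slide means removed. C1QA O11770, on which the tested value of C1QA rests alone, had r = 0.01 with C1QB A_72_P442926 and r = 0.02 with C1QA A_72_P165561. It ran from −2.16 through −1.94 to −1.01 in low RFI HF, from −3.41 through −2.02 to −1.05 in low RFI LF, from −2.31 through −1.59 to −1.20 in high RFI HF and from −1.98 through −1.72 to −1.35 in high RFI LF. Since its strand was not tested, O11770 may not measure the C1QA transcript. The line difference of C1QA so measured was −0.20 (SE 0.11, 95% confidence interval −0.43 to 0.02, adjusted P-value 0.48), and that of A_72_P165561 was 0.11 (95% confidence interval −0.52 to 0.74). With the B cell mean as a covariate C1QA as measured by O11770 differed by −0.39 (adjusted P-value 0.033), and with no other alternative run did it pass the adjusted threshold. As a gene, the mean of its 2 probes, C1QB differed by 0.03 (95% confidence interval −0.32 to 0.37, adjusted P-value 0.97).

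The genes most like the C1q probes included FSTL1, SPARC, MMP14 and C4BPA. FSTL1, a secreted glycoprotein, had r = 0.85 with C1QB A_72_P442926, 0.86 with C1QA A_72_P165561 and 0.87 with C1QC A_72_P403253. SPARC, a matrix protein, had r = 0.75 with the C1QB probe, and MMP14, a membrane-bound matrix protease, r = 0.78 with the C1QC probe. C4BPA, the alpha chain of the C4b-binding protein, had r = 0.80 with the C1QB probe, but this came from 2 of its 5 probes. A_72_P088301 and O794 had r = 0.92 and 0.93, and the other 3 C4BPA probes −0.04, 0.21 and 0.22. The C1QB probe had r = 0.46 with the neutrophil marker mean (rho = 0.43, adjusted P-value 0.0071), with 0.68 in low RFI and 0.19 in high RFI, and 0.29 with the monocyte or macrophage mean, with 0.71 in low RFI and −0.07 in high RFI. All these are correlations over the same 48 arrays.

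No complement gene was called for diet or for the interaction. Of the 10946 genes, 0 passed an adjusted P-value under 0.05 for diet by limma, with 212 at an unadjusted P-value under 0.05, and 0 for the interaction, with 255. The joint criterion was passed by 0.228% of genes for diet and 0.219% for the interaction, and by 0 of 7 members for each. Among the 7 members, the widest diet difference of a gene value was that of C1QB, 0.29 higher under HF (95% confidence interval −0.05 to 0.64, P-value 0.097). Within high RFI, where 0.384% of genes and 0 of 7 members passed the joint criterion, it was 0.52 (95% confidence interval 0.03 to 1.01, P-value 0.038, adjusted P-value 0.86), and within low RFI 0.06 (95% confidence interval −0.43 to 0.55). The probe A_72_P442926 was higher under HF on 6 of 6 slides, by 0.01 to 1.36, with a difference of 0.61 (P-value 0.096), and the C1QB probe O8971 differed by −0.02. The C1QA probe A_72_P165561, which is outside the retained table, differed by 0.52 (P-value 0.1), and by 0.99 within high RFI (P-value 0.029, adjusted P-value 0.86). For CD55 the diet difference was −0.01 (95% confidence interval −0.18 to 0.15), for CFP 0.00 (−0.11 to 0.12) and for CD59 0.01 (−0.47 to 0.49).

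Of 46 other complement genes listed, 24 were tested, and CLU alone was called, where 3.29% of all genes were called in either direction. CLU encodes clusterin, a plasma protein that also binds the membrane attack complex. It ran from 2.18 through 2.75 to 3.68 in low RFI HF and from 1.87 through 2.72 to 3.35 in low RFI LF, against 3.11 through 3.57 to 3.67 in high RFI HF and 2.97 through 3.53 to 5.03 in high RFI LF. In 22 of 24 low RFI pigs it was below the high RFI median, and the line difference was −0.78 (SE 0.13, adjusted P-value 0.00022). Among the 24 genes 13 differences were positive and 11 negative, with a median of 0.02 beside 0.03 over all genes. THBD (thrombomodulin, −0.39), ITGB2 (the beta chain of complement receptor 3, −0.15), C4 (0.14) and CFI (factor I, 0.22) had unadjusted P-values of 0.018, 0.041, 0.021 and 0.016, and adjusted P-values of 0.22, 0.34, 0.23 and 0.2. An unadjusted P-value under 0.05 was found for 5 of the 24 genes, CLU included, and for 1429 of 10946 genes. C4BPA differed by −0.16 (adjusted P-value 0.81), a mean of probes that go both ways, with 0.33 and 0.27 for the 2 that follow C1q and −0.26, −0.56 and −0.58 for the other 3. For diet, 0 of the 24 were called.

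**Figure D5:**
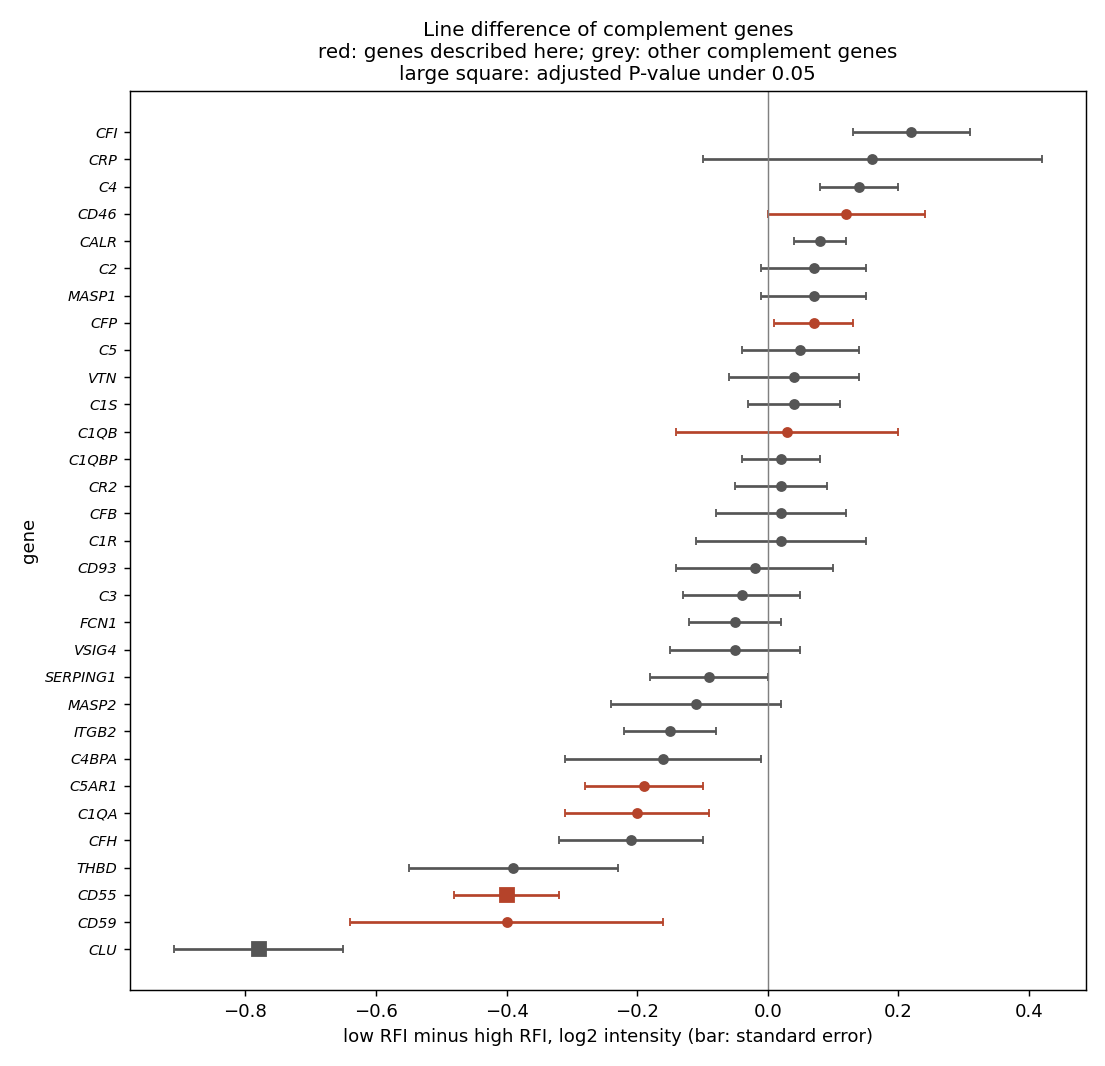
Difference between low RFI and high RFI (horizontal axis, log2 intensity, bars are standard errors) for the 7 tested complement genes described here (red) and 24 other complement genes (grey); large squares mark an adjusted P-value under 0.05. CD55 (−0.40) and CLU (−0.78) are the 2 genes marked, and CD59 has the estimate of CD55 with a wider error.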

How the data were processed

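RNA of whole blood of 48 pigs was labelled with Cy3 and hybridized to 1-colour Agilent arrays. The authors deposited scanner files, whose median pixel intensity, background-corrected intensity and call of well above background (other) were read, and a table of log2 values for 37113 retained spots (the submitters' processing notes name R 3.0.2). On 47 arrays the deposited log2 values were the median pixel intensity in log2 with the median of the retained spots taken off, matched within 0.000001, without background subtraction. For replicate 1 of high RFI HF the deposited column repeated 1 value, so it was rebuilt from the scanner file. The thresholds behind the retained spots are not given in the sources used here. Precision is limited by 12 arrays per group, with a median signal over background of 5.91 to 16.0 per array.

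A gene was the mean of its retained spots with that name. Line, diet and their interaction were fitted over all genes or all spots with limma 3.58.1 in R 4.3.3, with Benjamini-Hochberg adjustment over all tested, and the line and diet differences within each diet or line came from the same fit. FC is the ratio of low to high RFI, inverted with a minus sign below 1. Named genes were all members, other complement genes past the joint criterion (a P-value under 0.01 with an FC above 1.1) with C4BPA and CLU, and, for each member, genes among the 3 of highest Pearson's r. THBD, ITGB2, C4, CFI and the markers were named after their values were seen. Some genes and sequences are not reported here. Correlations used residuals from group means, with 100000 permutations. Other steps ran in Python 3.11.15 (scipy 1.17.1, pandas 2.3.3, matplotlib 3.10.9, numpy 2.4.6). The fit was tested on simulated data. Names and gene order came from the RefSeq table of Sscrofa11.1. The members and lists were chosen with earlier results of these data known. Alternatives were analysis of variance of each gene, a trended and robust prior, background-corrected signals centred on the median or 75th percentile, normexp (offset 50) with quantile normalization, all non-control spots, spots well above background throughout, slide or replicate number as a block, the brightest spot, names added by accession, no FC criterion, the column as deposited, and each pig left out. Covariates from marker lists and correlations between spots were added after seeing the data.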

Additional observations from a re-analysis of the deposited data

Results flagged for a closer look

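The spots given here lay outside the tested set of named, retained spots and were well above background on some or all arrays. The C1QA probe A_72_P165561 was so on 33 of 48 arrays and the C1QC probe on 31 of 48, both left out of the retained table, and a retained C1QA spot identified by accession on 37. The spots identified as CFD by gene number and as CD46 and CD55 by accession were well above background on 48, 48 and 48 arrays. The CD59 probe left out of the table was so on 26 arrays, and a spot of the same sequence on 25.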

How the results depend on the processing

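CD55 lay lower in low RFI under all 19 alternatives, by −0.43 to −0.29. With the deposited values for replicate 1 of high RFI HF, its adjusted P-value was 0.21, so 0 members were called. With the B cell covariate 2 members were called, by the adjusted threshold and by the criterion, CD55 and C1QA (−0.39, adjusted P-value 0.033). CLU ran from −0.81 to −0.71, with adjusted P-values up to 0.0026. Within HF, the 1 member called became 0 with the background-corrected signal centred on the array median, all non-control spots, the brightest spot, that column as deposited, or the neutrophil, monocyte or B cell covariate (0 to 1 over single pigs left out), and the 2 past the criterion, CD55 and C5AR1, became 1 with the brightest spot or the neutrophil or monocyte covariate and 0 with the column as deposited (lowest 1 over single pigs left out). Within LF, the number of members past the criterion fell from 1 to 0 with the brightest spot, the column as deposited or the erythroid covariate (lowest 0 over single pigs left out). CD55, the 1 member past it in the main fit, also did not pass with the B cell covariate (−0.21, limma P-value 0.089). For diet in high RFI 0 became 1 with the column as deposited. Of the other complement genes, 2 instead of 1 were called for line, at the adjusted threshold and by the criterion, with either background-corrected signal, the erythroid covariate or at most over single pigs left out, also 2 by the criterion with the column as deposited, and for diet 1 instead of 0 passed the criterion with the neutrophil or monocyte covariate. Markers of all lists called for line, of which 1 is an adipocyte marker, fell from 8 to 5 with all non-control spots or the neutrophil covariate, 4 with the brightest spot, 2 with the B cell covariate and 1 with the column as deposited. The cause was not tested. No called value changed sign, and 57 of 996 single-gene values did, all uncalled. Same-numbered pigs of different groups share a number and a slide (mean r of 72 pairs 0.19, −0.62 to 0.72, beside 0.06 for other numbers on the slide and −0.02 on other slides), which does not pair them, and with the replicate number as a block CD55 was −0.40 (adjusted P-value 0.00062), 1 member was called, and no call for a member changed. Signals near background limit C1QA and C1QC, whose probes were not detected on every array.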
